A study of Mus musculus with 6 samples.

Results

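The CXC chemokine genes described here are Cxcl12, Cxcl14, Cxcl15, Cxcl1 and Cxcl5, each of which had at least 1 region of differential chromatin accessibility linked to it in mouse embryonic fibroblasts with the mutation of fibrodysplasia ossificans progressiva (FOP). A region was linked to a gene when its midpoint lay inside the gene's GRCm38 span, or lay outside all protein-coding spans with that gene the nearest within 100 kb. These 5 genes are among 14 CXC ligand genes, and among 21887 protein-coding genes, in the annotation used. Together they took 8 of the 3521 listed regions, at 3 separate loci when Cxcl1, Cxcl5 and Cxcl15, which lie in a single gene cluster, are counted as 1 locus. The 5 genes were chosen by their number of linked regions in these lists, so that number is a description and was not tested.

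Fibroblasts from E13.5 embryos were assayed by ATAC-seq, a method that uses a transposase to insert sequencing adapters wherever chromatin is open. The 3 wild-type libraries had the genotype Acvr1+/+. The 3 mutant libraries were Acvr1R206H/+, heterozygous for the R206H change in the BMP type I receptor ALK2, a mutation under which bone forms in soft tissue. No further allele or treatment is named in the labels for either group. The deposited lists give the positions of regions more accessible (2965) or less accessible (556) in mutant cells, with no value per library, so depth, fold changes and the spread between replicates are unknown here.

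CXC chemokines are small secreted proteins that attract cells through G protein-coupled receptors, and they are named for a pair of conserved cysteines with a single residue between them. CXCL1 and CXCL5 attract neutrophils through the receptor CXCR2 and are typically induced in fibroblasts by inflammatory cytokines through NF-kB. CXCL12 is made by stromal cells, binds CXCR4 and the scavenging receptor ACKR3, and guides stem cells and leukocytes. CXCL14 is made in many healthy tissues, and CXCL15, also called lungkine, is known from the lung epithelium. Transcript and protein levels of these genes were not analysed here.

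All 8 regions linked to the 5 genes were in the more accessible list and none was in the less accessible list. Over all protein-coding genes, 7.27% had at least 1 linked more accessible region and 1.99% had at least 1 linked less accessible region, and 84.2% of all listed regions were more accessible. Because linked regions chose the 5 genes, nothing is read against these shares from their count, nor below from the counts of regions around the genes, which include the linked ones. The linked regions were 539 to 983 bp wide with a median of 652 bp, beside a median of 572 bp over all more accessible regions. None of the 8 lay inside a gene of the set, and their midpoints were 1.59 to 91.0 kb from the gene span. Of all more accessible regions, 45.4% had the midpoint inside a protein-coding gene. The member genes are short, at 1.88 to 12.8 kb, beside a median of 17.2 kb over protein-coding genes. Among the 9261 genes no longer than Cxcl12, 1.98% had a linked more accessible region.

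**Figure D1:**
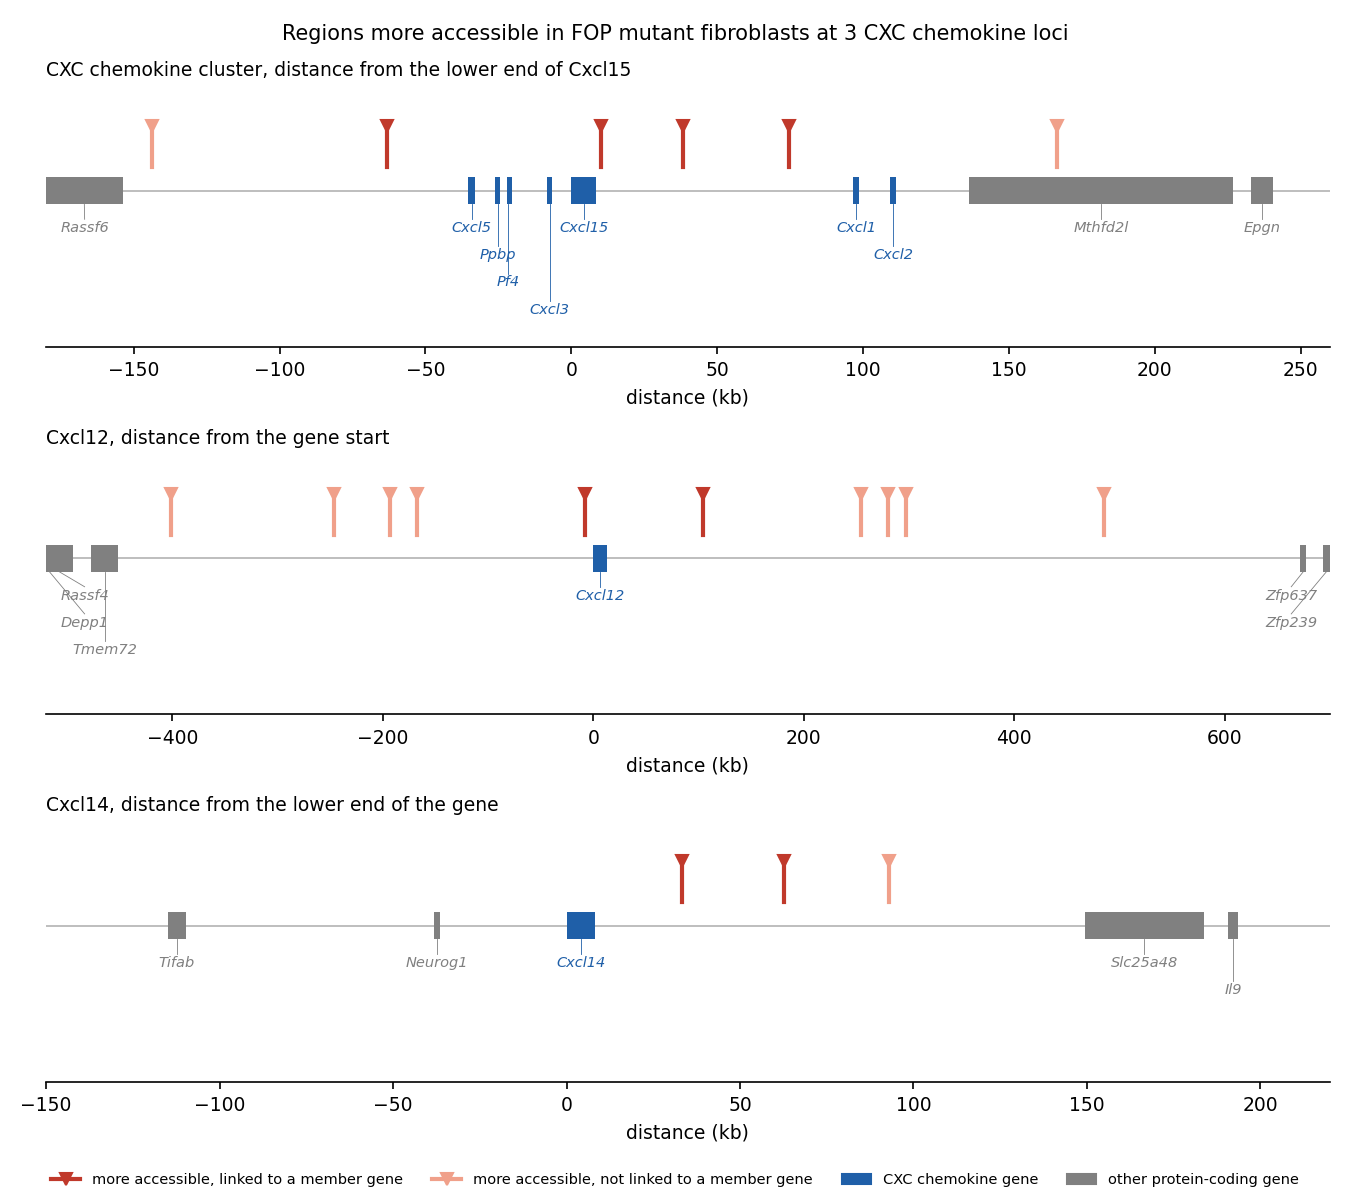
Maps of the 3 loci, with distance in kb along the horizontal axis from the lower end of Cxcl15, the start of Cxcl12 and the lower end of Cxcl14. Triangles mark regions more accessible in mutant cells, dark for the 8 linked to a member gene and pale for others, and boxes mark protein-coding genes. No less accessible region falls in these windows. The 10 regions around Cxcl12 spread over the stretch without other protein-coding genes on both of its sides.

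Listed regions rarely lay at promoters, for the CXC ligand genes as for protein-coding genes in general. Of 11 CXC ligand promoters in the RefSeq promoter table (GRCm38.p6), 4 of them of member genes and each the 250 bases before and 50 bases after the gene start, none overlapped a listed region. Over the 21263 promoters of protein-coding genes in that table, 5 (0.0235%) overlapped a more accessible region and 4 (0.0188%) a less accessible region. With such low shares, nothing particular to the CXC ligand genes is read from the lack of overlap. The 250 bases upstream of the start are shown for 3 genes, because the regions gained near them lie outside these sequences. Cxcl1 was taken as a neutrophil-attracting gene. Of the 5 genes, Cxcl15 has its span nearest to a linked region, and Cxcl12 has the most listed regions within 500 kb. Measured from the 250 bases, the nearest listed region is 7.53 kb away for Cxcl12 and 9.86 kb for Cxcl15. All 3 are on the plus strand and are printed from the RefSeq table, with capitals marking any match to the motifs searched.
Cxcl1, chr5:90890995-90891244: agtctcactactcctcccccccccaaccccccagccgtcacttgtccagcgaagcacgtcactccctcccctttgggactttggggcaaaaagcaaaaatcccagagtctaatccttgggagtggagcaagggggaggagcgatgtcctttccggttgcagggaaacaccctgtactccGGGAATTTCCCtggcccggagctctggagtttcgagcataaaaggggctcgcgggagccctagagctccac
Cxcl15, chr5:90794284-90794533: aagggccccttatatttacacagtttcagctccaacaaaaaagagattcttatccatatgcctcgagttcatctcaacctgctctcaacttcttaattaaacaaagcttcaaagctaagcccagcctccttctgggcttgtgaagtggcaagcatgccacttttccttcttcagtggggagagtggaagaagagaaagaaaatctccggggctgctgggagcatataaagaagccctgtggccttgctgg
Cxcl12, chr6:117168285-117168534: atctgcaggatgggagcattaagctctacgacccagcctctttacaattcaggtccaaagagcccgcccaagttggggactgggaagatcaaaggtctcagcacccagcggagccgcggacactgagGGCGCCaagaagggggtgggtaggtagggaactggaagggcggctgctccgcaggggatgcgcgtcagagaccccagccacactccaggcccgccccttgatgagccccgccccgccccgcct

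The 6 motifs, each searched on both strands in the 250 upstream bases, were AP-1 (TGANTCA), TEAD (GGAATG), RUNX (TGTGGT), the BMP-SMAD motif GGCGCC, the SMAD palindrome GTCTAGAC and the NF-kB consensus. The Cxcl1 promoter holds GGGAATTTCCC 61 to 71 bases upstream of the start, which is matched by the NF-kB consensus on both strands in overlapping positions. The same 11 letters stand in the promoters of its cluster neighbours Cxcl2 and Cxcl3, neither of which had a linked region. The NF-kB consensus was present in 4 of the 11 CXC ligand promoters (Cxcl1, Cxcl2, Cxcl3 and Cxcl10), beside 7.91% of all promoters of this length. The Cxcl12 promoter holds GGCGCC 118 to 123 bases upstream, a motif present in 12.3% of all promoters and in no other of the 11. In the Cxcl15 and Cxcl14 promoters none of the 6 motifs was found. A match is a run of letters and was not tested as a binding site. The Cxcl5 promoter was not used here.

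The CXC cluster on chromosome 5 carried 4 linked regions at 3 genes. In the annotation 7 chemokine genes, in the order Cxcl5, Ppbp, Pf4, Cxcl3, Cxcl15, Cxcl1 and Cxcl2, fill 147 kb (chr5:90759298-90905938) with no other protein-coding gene between them. Cxcl15 (chr5:90794534-90803067) had 2 regions, where 2.07% of protein-coding genes had at least 2 more accessible ones. The nearer, chr5:90804392-90804930, had its midpoint 1.59 kb beyond the end of the gene and 10.1 kb downstream of its start. The second, chr5:90832255-90833237, lay 29.7 kb beyond the gene and was the widest of the 8, at 983 bp.

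Cxcl1 (chr5:90891245-90893121), a neutrophil attractant, had 1 region at chr5:90868725-90869337, 22.2 kb upstream of its start. All 3 of these regions stand in the 88.2 kb between Cxcl15 and Cxcl1, where no other gene of any class is annotated, so the gene that each region was linked to rests on distance alone. At least 3 more accessible regions were found in 0.802% of the 19697 stretches between protein-coding genes, but the regions in this stretch are those that chose the genes, so nothing is read from that share. Cxcl5 (chr5:90759298-90761625), a ligand of the same receptor as CXCL1, had 1 region on its other side, at chr5:90731126-90731817, 27.8 kb from the gene.

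Links inside the cluster rest on the choice of the nearest gene. The cluster genes Cxcl2, Cxcl3, Pf4 (platelet factor 4) and Ppbp (pro-platelet basic protein) had 0 linked regions, yet each has 4 more accessible regions within 100 kb of it. Cxcl1 and Cxcl15 also have 4 within 100 kb, and Cxcl5 has 3. At least 4 within 100 kb was reached by 0.498% of protein-coding genes and at least 3 by 1.39%. The genes of the cluster share these regions and are not separate observations. Just beyond the cluster, the region at chr5:90650437-90650939 was linked to Rassf6, 9.95 kb from it, and the one at chr5:90960642-90961523 lay inside Mthfd2l. With these there were 6 more accessible regions within 500 kb of Cxcl1, of Cxcl5 and of Cxcl15, a count reached by 1.84% of protein-coding genes. The nearest less accessible region was 8530 kb from Cxcl1.

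Cxcl12 (chr6:117168535-117181368) had 2 linked regions, on opposite sides of the gene. The first, chr6:117160205-117160751, is 547 bp wide and 8.06 kb upstream of the start. The second, chr6:117271963-117272861, is 899 bp wide and lies 91.0 kb beyond the end, the farthest of the 8 from its gene and just inside the 100 kb limit. Cxcl12 is the lone protein-coding gene in 1.12 Mb between Tmem72 and Zfp637, and this stretch held 10 more accessible regions and 0 less accessible regions. Of these, 5 stand below the gene by coordinate and 5 above it. The stretch also holds 6 lncRNA genes.

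The 8 regions of that stretch left unlinked to Cxcl12 are mostly farther from any protein-coding gene than the limit allows. Their distances from the Cxcl12 span are 402, 247, 193 and 167 kb on the lower side and 242, 267, 284 and 473 kb on the upper side. The region at 402 kb was linked to Tmem72, which is 49.9 kb from it, and the other 7 had no linked gene. The nearest of the unlinked regions, 167 kb from the gene and so well past the limit, is chr6:117000776-117001935, which is 1160 bp wide. For 5 of the 7, at 167, 193, 242, 267 and 284 kb, Cxcl12 is the nearest protein-coding gene, so that with no distance limit Cxcl12 had 7 linked regions. The regions at 242, 267 and 284 kb stand close together (chr6:117422853-117423635, chr6:117448233-117449366 and chr6:117465510-117466120).

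Within 500 kb of Cxcl12 there were 10 more accessible regions, a number reached by 26 protein-coding genes (0.119%), among which are Runx2, the transcription factor of the osteoblast lineage, the limb regulator Tbx4 and the BMP modulator Bmper. The median over all protein-coding genes was 0. Neighbouring genes share regions, so these genes are not independent. Stretches with at least 5, as on each side of Cxcl12, were 0.193% of all those between protein-coding genes. That share takes no account of length, and the sides of Cxcl12 are 452 and 659 kb long. Per Mb they held 11.1 and 7.58 more accessible regions, beside 0.977 over all such stretches. Of the 10 regions, 2 are the linked ones that chose the gene, so the counts around Cxcl12 are a description and no support. No less accessible region was within 1000 kb of Cxcl12, the nearest being 1400 kb away.

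**Figure D2:**
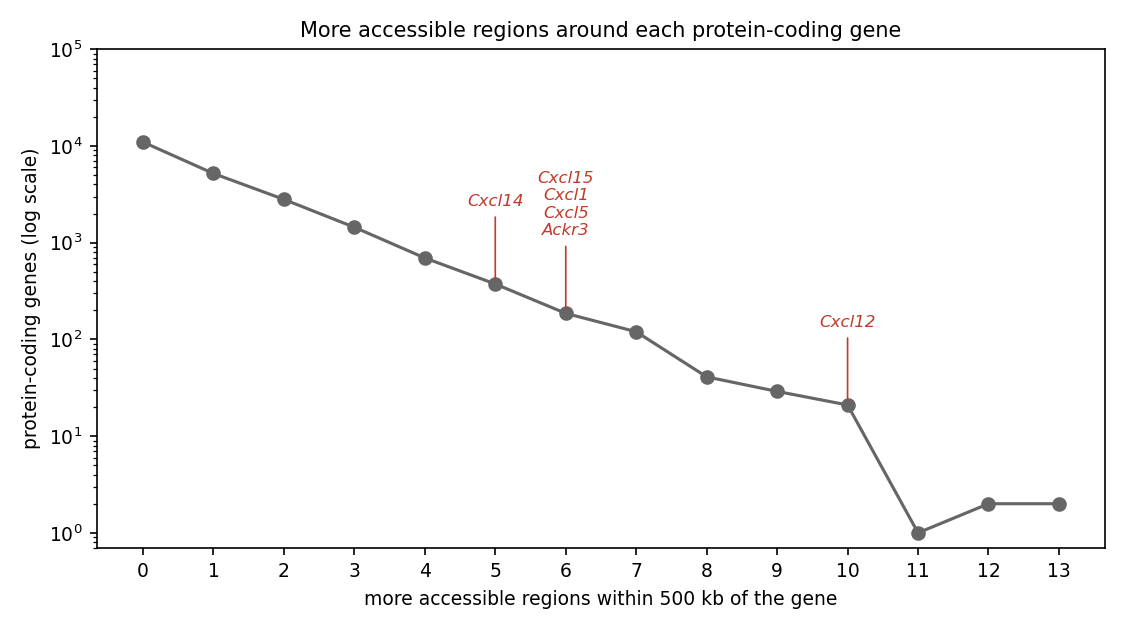
Number of protein-coding genes (vertical log axis) by the number of more accessible regions within 500 kb of the gene (horizontal axis), with the member genes and Ackr3 named in red. Cxcl12 stands at 10, Cxcl15, Cxcl1, Cxcl5 and Ackr3 at 6 and Cxcl14 at 5, beside a median of 0.

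Cxcl14 (chr13:56288643-56296811, minus strand) had 2 linked regions, both upstream of its start. The first, chr13:56321549-56322126, is 578 bp wide and 25.3 kb upstream. The second, chr13:56350987-56351810, is 824 bp wide, lies 54.8 kb upstream and has its midpoint inside the lncRNA gene Gm40960. Another more accessible region on the same side, chr13:56381008-56381977, is 84.7 kb from Cxcl14 and was linked to Slc25a48, a mitochondrial carrier gene 56.5 kb from it. These 3 regions are all that were listed in the 141 kb between both genes. No region was listed on the other side, in the 36.5 kb between Cxcl14 and Neurog1. Within 500 kb of Cxcl14 there were 5 more accessible regions, a count reached by 3.55% of protein-coding genes, and the nearest less accessible region was 4330 kb away.

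**Figure D3:**
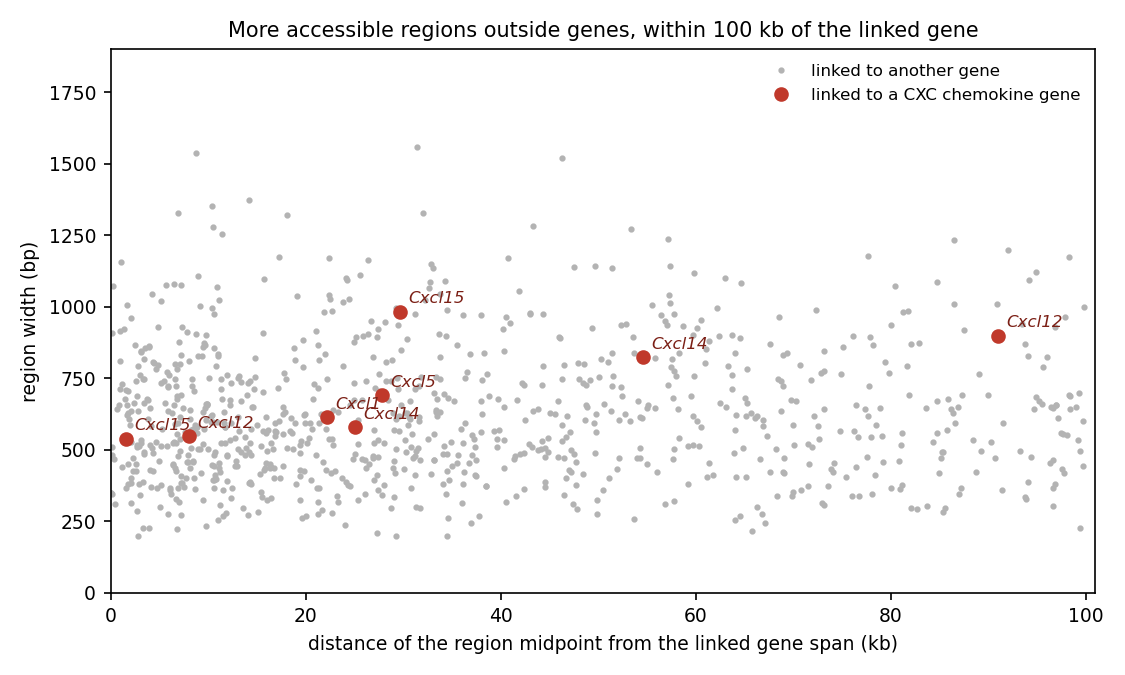
Width in bp (vertical axis) of the more accessible regions outside genes that were linked within 100 kb, against midpoint distance in kb from the linked gene (horizontal axis). The 675 more accessible regions farther than that from any protein-coding gene are not drawn. The 8 regions of the CXC chemokine genes (red, named) lie at 1.59 to 91.0 kb with widths of 539 to 983 bp, within the cloud of the other regions (grey).

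In distance the 8 regions were like other linked regions outside genes. Their median distance was 26.4 kb, and that of all 945 more accessible regions linked from outside a gene was 29.5 kb (quartiles 11.3 and 57.2 kb). Neighbouring linked regions at the same locus were 27.3 to 111 kb apart, so none of them merged when regions within 10 kb were joined. Each region was linked to 1 gene. When non-coding genes and pseudogenes were also offered to the link, 3 of the 8 regions stayed with a member, all of them between Cxcl15 and Cxcl1, which leaves 1 locus. With a limit of 10 kb there were 2 linked regions, 1 at Cxcl12 and 1 at Cxcl15. With 50 kb there were 6, as Cxcl12 and Cxcl14 had 1 each, and with no limit 13. Among all annotated genes, the nearest to the upstream Cxcl12 region was the lncRNA gene 2810048H02Rik, at 7.94 kb, with Cxcl12 at 8.06 kb. For the other Cxcl12 region it was the pseudogene Rpl28-ps4, at 58.3 kb, with Cxcl12 at 91.0 kb. The nearer Cxcl14 region was 1.5 kb from the pseudogene Gm17878. The Cxcl5 region was 2.17 kb from the lncRNA gene Gm36084.

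The other CXC ligands outside the cluster had no linked region. Cxcl9 and Cxcl10, interferon-induced attractants of T cells, lie farther along chromosome 5, with the nearest more accessible region 616 and 596 kb away. Cxcl13, which attracts B cells, had its nearest at 419 kb. Cxcl16, a membrane-bound ligand of CXCR6, had its nearest at 501 kb. Cxcl17 was the ligand with a less accessible region nearest, at 202 kb. In all, 5 of 14 CXC ligand genes had a linked more accessible region and 0 of 14 a less accessible one. Over all protein-coding genes the shares were 7.27 and 1.99%, and linked regions chose the 5. The median was 0 linked more accessible regions per gene, as over all genes.

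Among 8 receptor genes of CXC ligands, 2 had linked regions, 4 regions in all and each more accessible. Of all protein-coding genes, 7.27% had a linked more accessible region and 1.99% a linked less accessible one. Of all listed regions, 84.2% were more accessible. Ackr3 (chr1:90203980-90215724), whose product binds and clears CXCL12, had 3 linked regions, at 16.0, 54.1 and 63.7 kb beyond the gene. They are chr1:90231608-90231933, chr1:90269523-90270194 and chr1:90279075-90279835. At least 3 linked more accessible regions were found at 0.722% of protein-coding genes. With regions within 10 kb joined, Ackr3 had 2. Cxcr6, the receptor of CXCL16, had 1 at the end of the gene (chr9:123811321-123811783). Cxcr4, the signalling receptor of CXCL12, had none within 500 kb, its nearest more accessible region being 672 kb away. Cxcr1 and Cxcr2, the receptors of the neutrophil-attracting ligands, had their nearest at 797 and 759 kb, and Cxcr3, Cxcr5 and Ackr1 had no linked region.

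**Figure D4:**
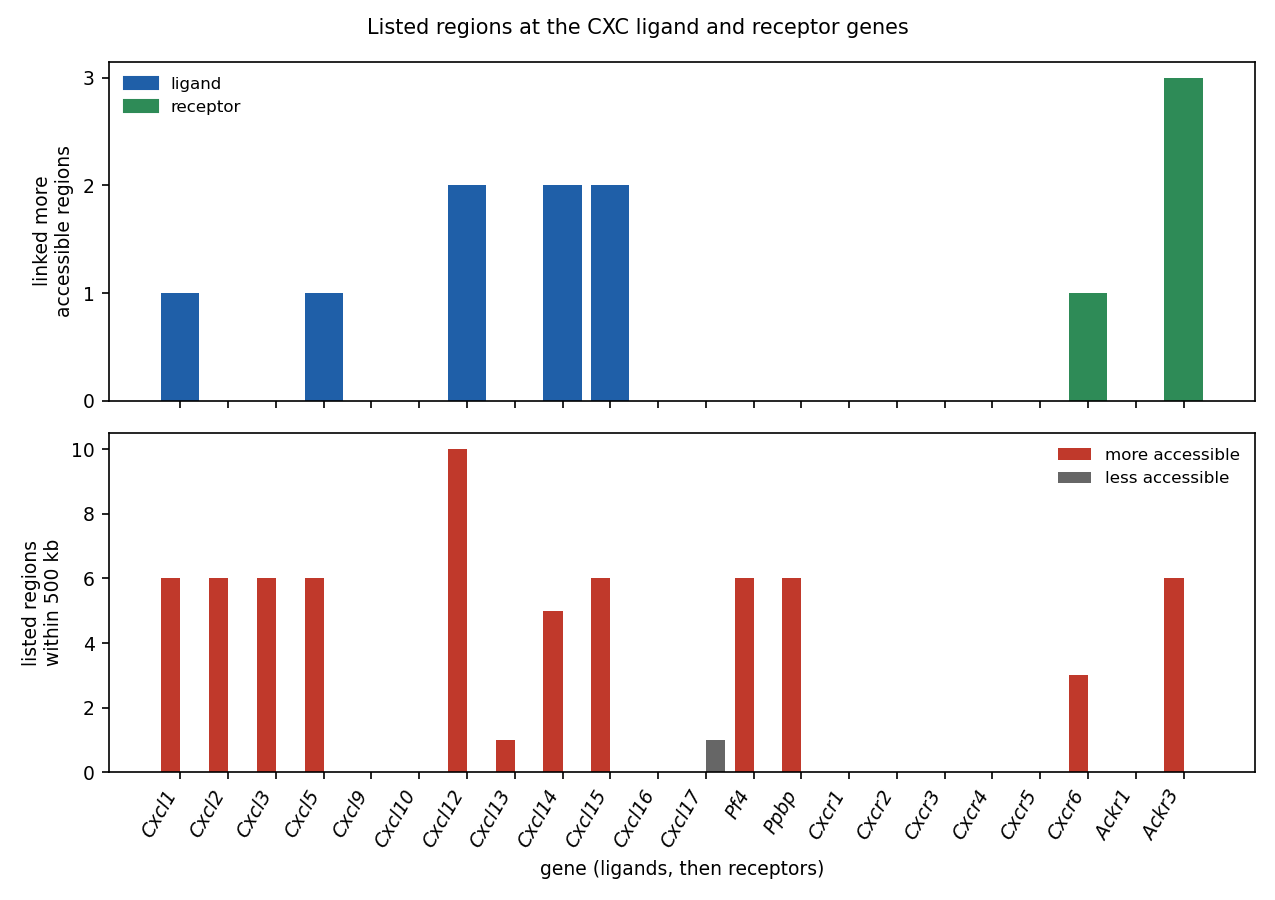
Upper bars give the number of linked more accessible regions at 14 CXC ligand genes (blue) and 8 receptor genes (green), and lower bars give the more accessible (red) and less accessible (grey) regions within 500 kb of each gene. Linked regions stand at 5 ligand and 2 receptor genes, with 3 at Ackr3, and the 1 less accessible region within 500 kb of these genes is at Cxcl17.

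By pattern of linked regions, Cxcl12, Cxcl14 and Cxcl15 each had 2 more and 0 less accessible, among 276 protein-coding genes (1.26%). Under the 100 kb rule, no other ligand or receptor gene of the chemokine lists had this pattern. Cxcl1 and Cxcl5 had 1 and 0, as did Ccl7, a monocyte attractant, and Cxcr6, among 1088 genes (4.97%). The pattern depends on the rule. With a limit of 50 kb, Cxcl12 and Cxcl14 had 1 more accessible region each, and Cxcl15 kept 2. With all annotated genes offered, Cxcl12 and Cxcl14 had 0. When regions within 10 kb were joined, Ackr3 also had 2 and 0. Linked regions chose the 5 genes, so nothing is read from this likeness.

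Links at the other chemokine genes and the pathways around them were counted in the same way. Of 20 other chemokine ligand genes, Ccl7 had 1 more accessible region, 1.76 kb from the gene, and Ccl6 had 1 less accessible region at 23.7 kb. None of 15 other chemokine receptor genes had a linked region. Of 20 genes of chemokine receptor signalling and ligand processing, 2 had a more accessible region, Arrb1 (a beta-arrestin) and Elmo1 (a RAC activator in migrating cells), and Elmo1 also had 1 less accessible region. Of 30 genes of NF-kB, IL-1, TNF and IL-17 signalling, which induces Cxcl1 and Cxcl5 in many cells, 4 had a more accessible region and 1 a less accessible one. The 4 were Il1r1, the IL-1 receptor, Tlr2, Tnfaip3, an NF-kB inhibitor, and Traf3ip2, an adaptor of the IL-17 receptor, and the other was Nfkbiz, an IkB family member. That is 13.3% of the list with a more accessible and 3.33% with a less accessible region, beside 7.27 and 1.99% of all protein-coding genes.

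Differential regions cannot show which genes are open in both genotypes, so the labelled cell type could not be checked against its markers. The marker lists were chosen with earlier results of these data known. Of 12 fibroblast markers, 4 had linked more accessible regions and none had less accessible ones. These regions lay outside the genes, 2 at Lum (9.47 and 17.7 kb) and 1 each at Dcn (23.8 kb), Fn1 (27.1 kb) and Postn (22.5 kb). That is 33.3% of the list, beside 7.27% of all protein-coding genes. The Dcn region (chr10:97455278-97456069) and the Lum regions (chr10:97547568-97548123 and chr10:97555604-97556464) lie close together, so these genes may not be separate observations. Of 10 macrophage and blood markers, 3 had a linked less accessible region and 0 a more accessible one. They were C1qa (9.19 kb from the gene), Fcgr1 (34.7 kb) and Itgam (11.6 kb). This is 30.0% of the list with a less accessible region, beside 1.99% of all protein-coding genes. Emcn (more accessible) and Cdh5 (less accessible) had 1 each of 8 endothelial markers (12.5% in each direction), and 0 of 8 epithelial markers had any. Whether the share of other cells differed between the libraries was not tested. Fewer cells with an open site and a less open site per cell cannot be told apart in such bulk libraries.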

How the data were processed

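The 3 wild-type and 3 FOP mutant ATAC-seq libraries were sequenced as paired-end reads, per the labels' protocols. The submitters' processing notes name the builds GRCm38 and mm10, and the tools DESeq2, featureCounts, MACS2, Bowtie2, Trimmomatic, bedtools and SAMtools, without their roles. Not given in the sources used here are versions, cutoffs, the handling of duplicates and of the transposase offset, and any pooling of libraries for peak calling. The deposited lists hold 3 columns (chromosome, start, end) in base pairs, and each list's name gives its direction. The libraries are described as biological replicates, without saying which embryo each came from.

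Regions were linked by midpoint to the protein-coding spans of the RefSeq gene table (GRCm38.p6), with a limit of 100 kb, in Python 3.11.15 with numpy 2.4.6. Gene starts, strands and promoters came from the RefSeq promoter table. The linking recovered 200 of 200 regions planted inside genes. Positions are counted from 1. No test was made, because linked regions chose the genes and no value per library was used. The members, the 10 gene lists (146 genes, all matched, of which Cxcl11 is annotated as a transcribed pseudogene) and the motifs were chosen with earlier results of these data known. Named genes are the members, the other CXC ligands and receptors, up to 4 genes with linked regions per list, and genes flanking a linked region. Traf3ip2, and the 3 genes named beside Cxcl12 for their count within 500 kb, fall outside this rule and were picked once their values had been seen. Motifs in the regions themselves were planned and not run, as no genome sequence was used here.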

Additional observations from a re-analysis of the deposited data

How the results depend on the processing

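The 8 linked more accessible regions became 2 with a limit of 10 kb, 6 with 50 kb and 13 with no limit. They became 3 with all annotated genes offered and 10 with every gene within 100 kb linked. The 3 loci became 2 with a limit of 10 kb, 1 with all annotated genes and 5 with each gene its own locus. The 5 CXC ligand genes with a link became 2 with a limit of 10 kb, 2 with all annotated genes, and 9 when every gene within 100 kb was linked, an alternative chosen after seeing the data. The share of genes with a linked more accessible region, 7.27%, became 5.03% (10 kb), 6.53% (50 kb), 8.44% (no limit), 6.83% (nearest gene end), 5.46% (all annotated genes) and 16.5% (every gene within 100 kb). The changes with another limit, with all annotated genes and with every gene linked follow from those alternatives' own construction, which offers other genes or distances; for the nearest gene end the cause was not tested. The count of less accessible regions was 0 under all 8 alternatives. Any overlap in place of the midpoint, and merging regions within 10 kb, left the 8 regions, 3 loci and 5 genes at the same numbers.

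A stricter threshold of the authors and leaving out a library were not run, since the lists hold no score and no value per library. No paired analysis was possible because the lists hold no value per library. Depth is unknown, and a region missing from the lists is not shown to be unchanged.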
